A study of Mus musculus with 9 samples.

Results

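The genes described here encode the subunits of potassium channels. They were taken as the protein-coding genes whose mouse symbol in the GENCODE annotation starts with Kcn followed by a family letter, which gave 94 genes of the 52550 in the count table. By the family in their symbol, 40 encode voltage-gated subunits (Kv), 13 auxiliary subunits of voltage-gated channels, 15 inward rectifiers (Kir), 14 two-pore channels (K2P), 9 calcium-activated channels or their beta subunits, and 3 the sodium-activated channels Slack and Slick and the sperm channel Slo3. RNA came from the spinal cord of adult female C57BL/6N mice at day 7, with 3 mice in each of 3 groups. Sham mice had a laminectomy and no contusion, and no vehicle injection is described for them. SCI mice had a contusion at T10 and were given the vehicle DMSO. SCI+FIPI mice had the same contusion and were given FIPI, an inhibitor of phospholipase D. The tissue was a segment of whole cord around the epicenter, so that fewer cells of a type and less RNA per cell cannot be told apart in any of the values.

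Potassium channels let potassium leave the cell, or enter it, along its electrochemical gradient, and so set the resting potential and end each action potential. Kv channels open on depolarization, and their beta, KChIP and MinK-related partners change how they open and where they are placed. Kir channels pass current best near the resting potential and carry potassium into astrocytes, K2P channels give the leak current, and calcium-activated channels open when calcium rises inside the cell. In the cord, Kv channels are best known from neurons and their axons, Kir4.1 from astrocytes and oligodendrocytes, and the intermediate-conductance channel KCa3.1 from microglia and macrophages.

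Counts totalled 20806000 to 24582377 per mouse. Levels are given as CPM, the count scaled to the library total after TMM normalization, and as FPKM, which also divides by exonic length, where genes are compared with each other. A gene was called higher or lower when its log2 fold change in edgeR's quasi-likelihood test was at least 0.5 in size and its p-value, adjusted by Benjamini-Hochberg over 18699 genes, was under 0.05. Of the 94 genes, 81 had enough counts to be tested and 76 of these were over the count limit in all 9 mice. The others were over it in some mice only, Kcne3 and Kcnj5 in 3, Kcnk7 in 5, Kcnv1 in 7 and Kcnj4 in 8, so that counts over the tested genes are not counts over all members. The 13 that were not tested had at most 16 counts in any mouse. They were Kcna7, Kcna10, Kcng3 and Kcnv2 of the voltage-gated class, Kcne1 and Kcne2 of its auxiliary subunits, Kcnj1 and Kcnj13, Kcnk15, Kcnk16 and Kcnk18, and Kcnmb3 and Kcnmb4. Kcnj1 was at 0 in every mouse, where a count of 0 allows up to 3, and Kcnmb4, the BK beta subunit known from neurons, had 3 to 9 counts. The antisense genes Kcnmb4os2 and Kcnmb4os1 overlap 20.85% and 10.68% of the exonic length of Kcnmb4. The strand setting of the counting is not given, and its part in this low level was not tested. All neuron, astrocyte, oligodendrocyte and microglia markers used to check the tissue were detected.

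RefSeq promoter windows were found for 69 of the 94 genes. The 250 bases before the start of transcription are shown for the calcium-activated gene Kcnn4 and the inward rectifier Kcnj15, which had the highest fold changes after injury, and for Kcna2 and Kcnc1, which fell from high levels. They are written 5′ to 3′ from build GRCm38.p6 with each CpG in capitals, and lie on the plus strand at chr7:24370013-24370262, chr16:95257308-95257557, chr3:107101317-107101566 and chr7:46396218-46396467 in that order.
Kcnn4: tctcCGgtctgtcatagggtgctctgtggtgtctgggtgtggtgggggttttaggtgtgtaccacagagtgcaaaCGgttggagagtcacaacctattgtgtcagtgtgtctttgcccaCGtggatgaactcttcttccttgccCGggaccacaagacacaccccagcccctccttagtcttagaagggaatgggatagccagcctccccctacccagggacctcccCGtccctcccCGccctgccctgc
Kcnj15: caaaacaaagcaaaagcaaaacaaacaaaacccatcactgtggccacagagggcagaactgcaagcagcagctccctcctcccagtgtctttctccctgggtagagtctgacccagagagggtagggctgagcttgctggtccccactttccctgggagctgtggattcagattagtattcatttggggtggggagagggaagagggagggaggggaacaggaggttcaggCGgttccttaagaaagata
Kcna2: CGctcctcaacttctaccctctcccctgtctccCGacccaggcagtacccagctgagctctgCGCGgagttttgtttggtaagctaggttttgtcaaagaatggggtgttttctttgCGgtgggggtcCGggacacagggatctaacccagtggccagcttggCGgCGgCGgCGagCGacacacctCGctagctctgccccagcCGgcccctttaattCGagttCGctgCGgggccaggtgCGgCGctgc
Kcnc1: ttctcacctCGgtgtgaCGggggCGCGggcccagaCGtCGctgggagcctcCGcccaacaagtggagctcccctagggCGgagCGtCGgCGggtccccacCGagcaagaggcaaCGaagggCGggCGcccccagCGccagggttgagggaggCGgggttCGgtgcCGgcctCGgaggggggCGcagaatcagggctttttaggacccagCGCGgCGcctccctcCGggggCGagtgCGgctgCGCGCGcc
These stretches hold 6, 1, 18 and 30 CpG. A gene can have several windows. Over the 8 windows of the 7 genes called higher after injury the median was 8 CpG (1 to 19), over the 56 windows of the 38 called lower 8 (0 to 31), over the 18 windows of the 13 tested and called neither way 7.5, and over all 32851 windows 6. With only the highest window of each gene, which is not comparable with the value over all windows, the medians were 9, 14 and 8. The CpG counts were made after 3 motifs had been searched on both strands of the same 250 bases and their shares had been seen, and neither was tested. TGANTCA, the AP-1 motif, was in 4.26% of the members' 94 windows and in 6.75% of all windows, and GAGGAAG, a core of PU.1 motifs, in 10.6% of both. TTCAGCACC, the left part of the RE1 element bound by REST, was in 1.06% of the members' windows and 0.301% of all. The only member with it was Kcnh6, a Kv11 channel gene, shown here on the plus strand of chr11:106007960-106007989 with the motif in capitals.
Kcnh6: atTTCAGCACCacgacgcggacagctcccg
A match of letters is a description of these windows and not a binding site.

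SCI was compared with Sham to see which channel genes differed in the injured cord, and this is what after injury stands for. Here, as in SCI+FIPI against Sham, contusion and vehicle injection cannot be told apart, since no injection is described for Sham mice. Most channel genes had lower levels in the injured cord, 59 of the 81 tested, and 8 had higher levels. Over all genes tested in this comparison, 22.5% were called lower and 24.4% higher, and 70.5% had groups that did not overlap. The median log2 fold change of the members was -1.23, against -0.00 over all genes. Every class had a negative median, and the 8 genes called higher were those against their class: Kcnn4 among calcium-activated genes, Kcnj15 and Kcnj2 among inward rectifiers, Kcnk6 and Kcnk5 among two-pore genes, and Kcne1l, Kcne3 and Kcne4 among auxiliary subunits. No voltage-gated pore or modifier gene was called higher.

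**Figure D1:**
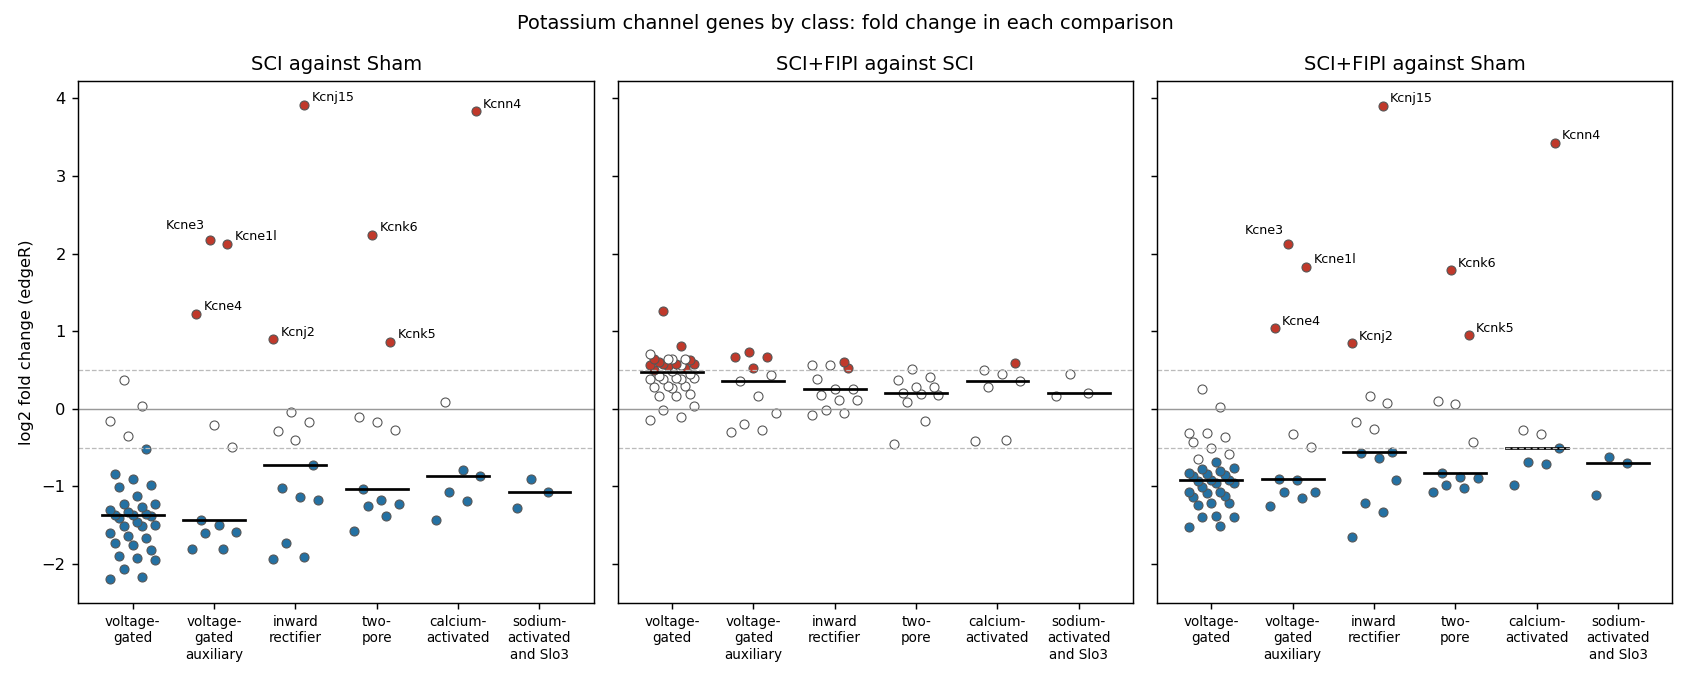
Log2 fold change (vertical axis, edgeR) of each tested potassium channel gene by class in the 3 comparisons. Red points were called higher, blue points lower and open points neither, black bars are class medians, and dashed lines mark 0.5 in either direction. The labelled genes lie above 0 while the medians of SCI against Sham lie between -1.43 and -0.73.

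In the voltage-gated class, 32 of 36 tested genes fell, 0 rose, and the median was -1.37. The Kv3 genes encode fast channels that let neurons fire at high rates. Kcnc1 (ENSMUSG00000058975) was at 326, 286 and 356 CPM in the Sham mice, 103, 92.6 and 78.2 in the SCI mice and 137, 146 and 126 in the SCI+FIPI mice. Each SCI mouse lay below each Sham mouse for Kcnc1, Kcnc2 and Kcnc4. The log2 fold change of SCI against Sham was -1.82 ± 0.11 for Kcnc1 (SE, adjusted p = 2e-08), with -1.92 for Kcnc2 and -1.36 for Kcnc4.

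Among Kv1 genes, 4 of the 6 tested fell. Kcna1 and Kcna2 encode the channels clustered beside the nodes of myelinated axons. Kcna2 (ENSMUSG00000040724) was at 455, 414 and 507 CPM in Sham, 151, 144 and 111 in SCI and 205, 210.4 and 178 in SCI+FIPI mice, a log2 fold change of -1.76 ± 0.12 after injury (SE, adjusted p = 1.48e-07). Kcna1 was at 163, 144 and 206 CPM in Sham and 65.2, 66.4 and 49.2 in SCI mice (-1.51 ± 0.17, adjusted p = 8.54e-05). Kcna6, which also encodes an axonal Kv1 channel, stayed closer to Sham at 67.5, 59.8 and 57.7 CPM in SCI against 76.3, 80.2 and 79.9 in Sham mice, a difference of -0.35 ± 0.07 that was under the limit on the fold although its adjusted p was 0.000249. The groups did not overlap for Kcna6, and an antisense gene covers 39.6% of its exonic length. Whether strand was used in counting is not given in the sources used here. Kcna3, the Kv1.3 channel known from T cells and microglia, was called lower (adjusted p = 0.021) at 1.22, 0.868 and 0.802 CPM in SCI against 1.44, 1.3 and 2.67 in Sham mice. It lost that call without Sham 3 (log2 fold change -0.50, adjusted p = 0.178), SCI 2 (-0.84, 0.0619) or SCI 3 (-0.79, 0.068). Kcna5 was at 4.6, 6.31 and 4.35 CPM in Sham and 4.86, 5.04 and 3.75 in SCI mice, and the groups overlapped.

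Kcnb2, a Kv2 gene of the kind that gives the delayed rectifier of neurons, was called lower (-2.19 ± 0.16, adjusted p = 1.66e-08). It was at 14, 13.3 and 13 CPM in Sham, 3.77, 2.6 and 2.4 in SCI and 4.78, 5.13 and 5.54 in SCI+FIPI mice. The modifier genes encode subunits that form no channel alone and join Kv2, and 7 of the 8 tested fell, among them Kcns2 (-2.17 ± 0.21, adjusted p = 3.46e-07). The one that did not was Kcns1, at 12.1, 10.2 and 10.1 CPM in Sham and 14, 14.4 and 13.2 in SCI mice, where every SCI mouse lay above every Sham mouse. Its log2 fold change of 0.37 ± 0.12 had an adjusted p of 0.0136 and was under the limit on the fold.

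The 3 Kv4 genes fell by 0.52, 1.37 and 1.12 on the log2 scale for Kcnd1, Kcnd2 and Kcnd3, which give the A-type current. All 8 genes of the EAG, ERG and ELK families fell, with a median of -1.51. Of the Kv7 genes, which carry the M-current that damps repeated firing, Kcnq3 was at 101, 101 and 102 CPM in Sham and 47.5, 43.4 and 39.2 in SCI mice and fell by 1.23 on that scale. Kcnq1, known from the heart and epithelia, was at 1.34, 2.03 and 2.38 CPM in Sham and 1.26, 2.48 and 2.19 in SCI mice, and its groups overlapped.

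**Figure D2:**
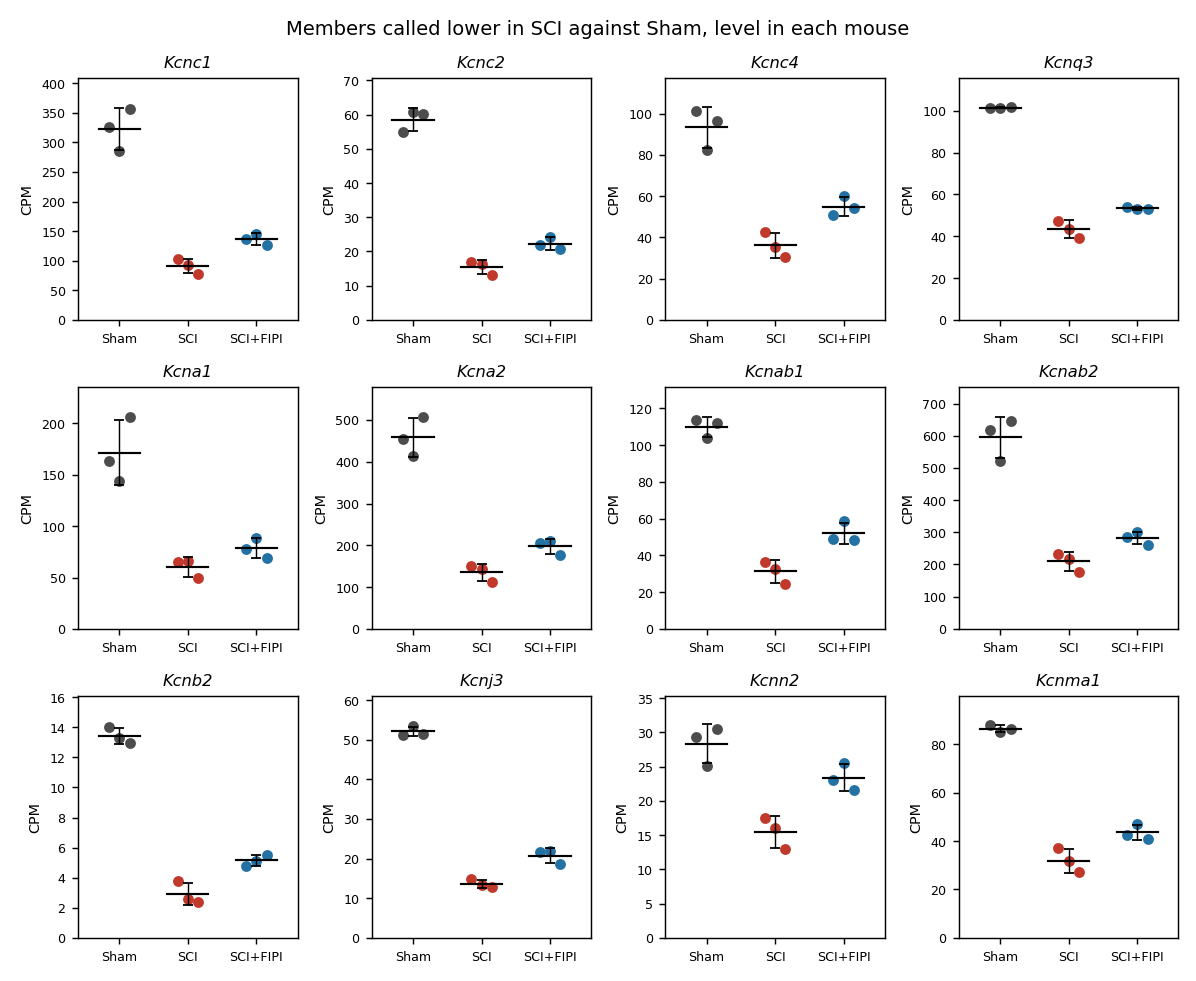
Level in CPM (vertical axes, each from 0) of 12 members called lower in SCI against Sham, in each Sham, SCI and SCI+FIPI mouse. Points are mice, horizontal bars means and whiskers SD of 3 mice. For each of the 12, every SCI mouse lies below every Sham mouse, and Kcnc1 goes from 286 to 356 CPM in Sham mice to 78.2 to 103 in SCI mice.

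The auxiliary class split by family. All 3 Kv beta genes and 3 of 4 KChIP genes fell. Of the MinK-related genes, Kcne1l and Kcne4 rose, and Kcne1 and Kcne2 were not tested. Kcne3 was also called higher, but it entered the test only through the groups where it was high. Kcnab2, which brings Kv1 channels to the axon, was at 618, 522 and 645 CPM in Sham and 234, 218 and 177 in SCI mice (-1.50 ± 0.11, adjusted p = 7.69e-08), and Kcnab1 and Kcnab3 each fell by 1.81 on the log2 scale. Kcnip1 and Kcnip4, whose products bind Kv4 channels, fell by 1.43 and 1.60. Kcnip3, which encodes the calcium-binding protein DREAM, was at 75, 68.5 and 65.1 CPM in Sham and 48.5, 48.8 and 50.8 in SCI mice, and its difference of -0.49 ± 0.07 (adjusted p = 1.57e-05) was just under the limit. It passed with upper-quartile scaling (-0.56), with offsets for GC content and length (-0.66), and without Sham 2 (-0.51), Sham 3 (-0.54) or SCI 3 (-0.51).

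Kcne1l (ENSMUSG00000090122), a MinK-related gene also known as Kcne5, was at 24, 24.1 and 22.6 CPM in the Sham mice, 108, 106 and 94.5 in the SCI mice and 87.6, 80.2 and 83.3 in the SCI+FIPI mice. Each injured mouse lay above each Sham mouse, and the log2 fold change of SCI against Sham was 2.12 ± 0.07 (SE, adjusted p = 2.35e-11). By FPKM it ranked 16 among the members in Sham mice and 2 in both injured groups, after Kcnj10. Kcne4, whose product damps Kv1 and Kv7 currents, was at 1.58, 2.68 and 2.13 CPM in Sham and 3.77, 3.68 and 7.59 in SCI mice, with SCI 3 well above the other two (1.23 ± 0.29, adjusted p = 0.00221). Kcne3 had 2 counts in each Sham mouse and 8, 11 and 11 in the SCI mice. It entered the test only through the groups where it was high, so that its call is no support for the count of 8 or for the split by family. The ratio of its summed counts was 4.64 (95% exact interval 1.9 to 13.6, counting error only).

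Inward rectifiers had a median of -0.73, with 7 of 13 tested genes lower and 2 higher. Kcnj10 (ENSMUSG00000044708), which encodes Kir4.1, was at 1082, 960.2 and 1096 CPM in Sham, 879, 944 and 757 in SCI and 936, 947 and 909 in SCI+FIPI mice. The SCI mice lay below the Sham mice, and the difference of -0.28 ± 0.08 (adjusted p = 0.00735) was under the limit on the fold. It had the highest FPKM of all members in each group and made up 75.5% of the summed FPKM of its class in Sham, 81.5% in SCI and 79.9% in SCI+FIPI mice. Kcnj16, which encodes the partner Kir5.1, was called lower at 37.4, 43.5 and 33.4 CPM in SCI against 64.9, 58.8 and 66 in Sham mice (-0.73 ± 0.09, adjusted p = 5.36e-06).

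Of the 4 genes of G protein-gated Kir3 channels, which slow neurons under transmitters such as GABA, 3 fell. Kcnj3 was at 51.3, 53.5 and 51.5 CPM in Sham and 14.8, 13.3 and 12.8 in SCI mice (-1.93 ± 0.09, adjusted p = 1.9e-10), and Kcnj6 and Kcnj9 fell by 1.91 and 1.17 on the log2 scale. The other, Kcnj5, had fewer than 1 CPM in every mouse and its groups overlapped. A non-coding gene on the opposite strand overlaps 31.1% of the exonic length of Kcnj3. The 2 genes of the ATP-sensitive pore differed in the call. Kcnj11, known from neurons, was at 35.4, 30 and 34.8 CPM in Sham and 12, 10 and 8.1 in SCI mice (-1.73 ± 0.13, adjusted p = 3.57e-08). Kcnj8, known from pericytes and smooth muscle, was at 6.85, 6.82 and 5.27 and 5.41, 6.7 and 6.29 CPM, with overlapping groups and a difference of -0.04 ± 0.14.

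Kcnj15 (ENSMUSG00000062609), which encodes Kir4.2, was at 0.431, 1.17 and 1.8 CPM in Sham mice, 13.5, 13.1 and 26 in SCI mice and 10.9, 20.7 and 20.3 in SCI+FIPI mice. The groups did not overlap, SCI 3 was the highest mouse, and the log2 fold change of SCI against Sham was 3.92 ± 0.55 (SE, adjusted p = 0.000531). Kcnj2, which encodes Kir2.1, a channel of microglia, endothelium and muscle, was at 15.2, 21 and 14.3 CPM in Sham, 28.4, 23.4 and 42.4 in SCI and 28.6, 31.1 and 31 in SCI+FIPI mice. Its log2 fold change after injury was 0.90 ± 0.23 (adjusted p = 0.00979), and SCI 3 again stood highest.

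Among two-pore genes, 6 of 11 tested fell and 2 rose, with a median of -1.03. Kcnk1, which encodes TWIK-1 and is the most abundant of the class by FPKM, was at 73.6, 73.2 and 73.7 CPM in Sham and 37.5, 40.2 and 30.3 in SCI mice (-1.03 ± 0.09, adjusted p = 6.84e-08). The TASK genes Kcnk9 and Kcnk3, which give acid-sensitive leak currents, fell by 1.58 and 1.25 on the log2 scale, and Kcnk12 by 1.39. Kcnk13, the THIK-1 channel of microglia, was at 31.7, 29 and 31.3 CPM in Sham and 25.8, 25.2 and 25.3 in SCI mice, a difference of -0.27 ± 0.08 under the limit (adjusted p = 0.00809). Kcnk2, which encodes the stretch-sensitive TREK-1, did not pass the test at 21.8, 17.8 and 21.7 CPM in SCI against 21.8, 23.3 and 23.9 in Sham mice (adjusted p = 0.181).

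Kcnk6 (ENSMUSG00000046410), which encodes TWIK-2, a channel described in macrophages, was at 6.32, 7.6 and 6.81 CPM in the Sham mice, 31.2, 34.4 and 32.8 in the SCI mice and 22, 25 and 24.6 in the SCI+FIPI mice. The 3 groups did not overlap, with SCI highest and SCI+FIPI between, and SCI differed from Sham by 2.24 ± 0.10 on the log2 scale (SE, adjusted p = 1.29e-10). Kcnk5, which encodes TASK-2, was at 3.31, 4.06 and 5.14 CPM in Sham and 7.55, 4.84 and 10.4 in SCI mice. These groups overlapped, and the call of Kcnk5 (0.86 ± 0.29, adjusted p = 0.0231) was lost without Sham 1 (log2 fold change 0.72), Sham 2 (0.84), SCI 1 (0.86) or SCI 3 (0.57), and with offsets for GC content and length (0.68).

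Calcium-activated genes had a median of -0.87, with 5 of 7 tested lower and 1 higher. Kcnma1, the pore of the BK channel, was at 87.9, 85 and 86.3 CPM in Sham, 37, 31.5 and 27.1 in SCI and 42.7, 47 and 40.9 in SCI+FIPI mice (-1.44 ± 0.09 for SCI against Sham, adjusted p = 1.03e-08). The 3 SK genes, whose channels give the afterhyperpolarization that follows a spike, fell by 1.07 for Kcnn1, 0.87 for Kcnn2 and 0.79 for Kcnn3. Kcnn4 (ENSMUSG00000054342), the pore of KCa3.1, was at 1.15, 3.02 and 0.543 CPM in the Sham mice, 19.9, 22.1 and 25.5 in the SCI mice and 14.7, 18.4 and 17.8 in the SCI+FIPI mice. It moved against its class in each injured mouse, with a log2 fold change of 3.83 ± 0.42 (SE, adjusted p = 9.08e-05). By FPKM the leading gene of the class was Kcnma1 in Sham mice (30.1% of the class) and Kcnn4 in SCI (35.3%) and SCI+FIPI mice (23.6%). The sodium-activated gene Kcnt1 was at 245, 235 and 224 CPM in Sham and 131, 111 and 93.9 in SCI mice (-1.07 ± 0.10, adjusted p = 5.4e-07), and Kcnt2 and Kcnu1 were also called lower, Kcnt2 not with offsets for GC content and length.

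**Figure D3:**
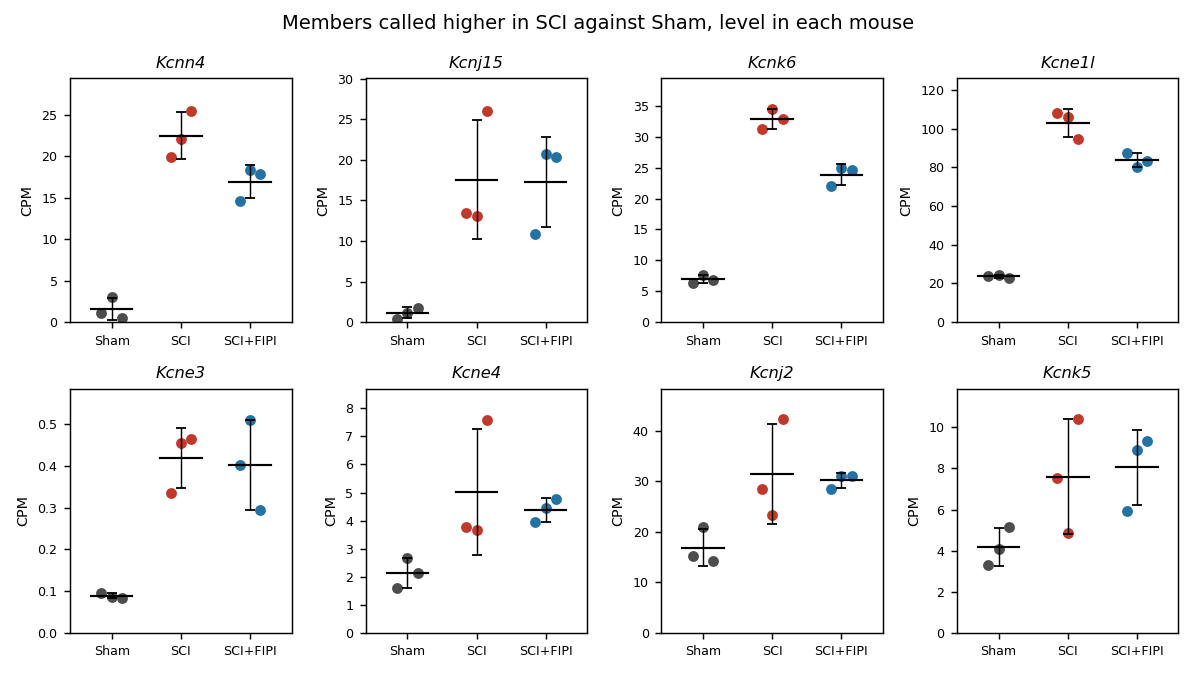
Level in CPM (vertical axes, each from 0) of the 8 members called higher in SCI against Sham, in each mouse of the 3 groups. Points are mice, horizontal bars means and whiskers SD of 3 mice. Kcnn4 stays at or below 3.02 CPM in Sham mice and lies at 14.7 or above in both injured groups, while the Sham and SCI mice overlap for Kcnk5.

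**Figure D4:**
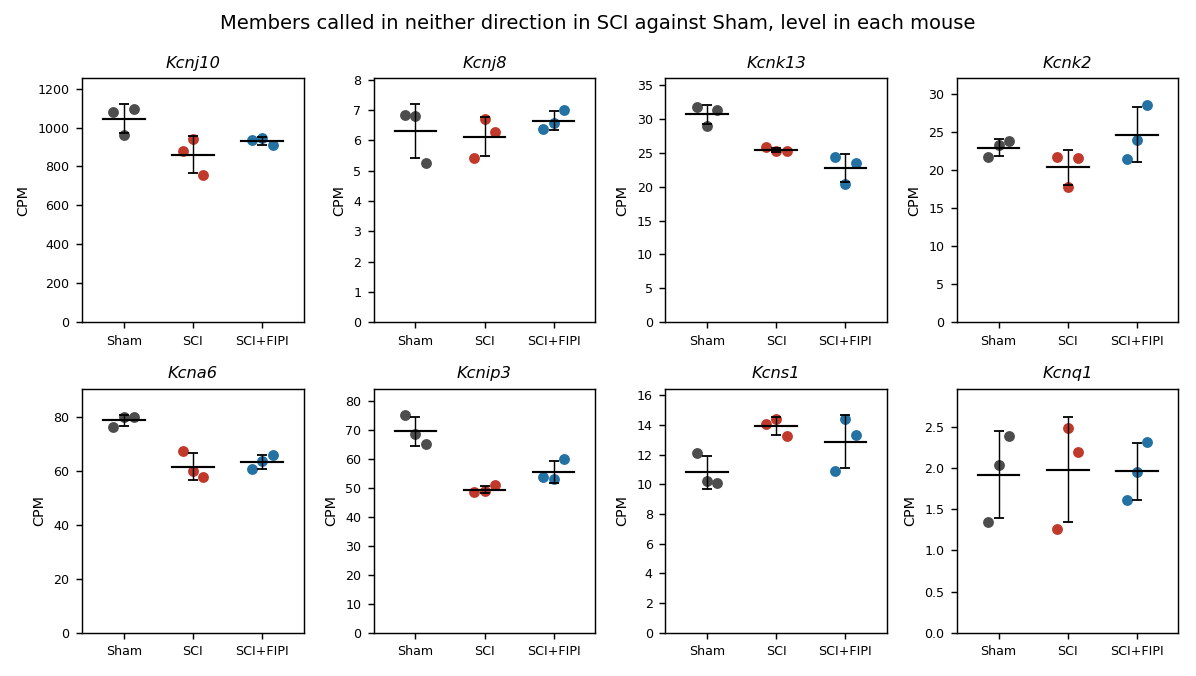
Level in CPM (vertical axes, each from 0) of 8 members called in neither direction in SCI against Sham, in each mouse of the 3 groups. Points are mice, horizontal bars means and whiskers SD of 3 mice. Kcnj10 lies between 757 and 1096 CPM over the 9 mice, and the SCI mice of Kcns1 lie above its Sham mice.

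Markers of cell types moved in the same comparison. All 10 neuron markers fell (median -1.47), and their summed level was 8674 to 9724 CPM in Sham and 2694 to 3771 in SCI mice. Of the 6 motor neuron markers 5 fell (-1.04), and of 7 oligodendrocyte markers 4 fell (-0.60). Of 9 microglia and macrophage markers 8 rose (2.17), with a summed level of 259 to 397 CPM in Sham and 5388 to 6590 in SCI mice. All 5 fibroblast markers rose (3.78), as did 5 of 6 mural (1.17), 3 of 5 endothelial (0.92) and 3 of 4 OPC markers (0.83). The other OPC marker was at -0.42. The summed OPC level changed little, from 785 to 825 CPM in Sham to 787 to 865 in SCI mice. Cspg4 is in both the OPC and the mural list. Astrocyte markers were mixed, with 3 of 8 higher and 1 lower (0.08), among them Gfap at 1.22. Of 4 ependymal markers 1 fell, 1 of the 2 T cell markers tested rose, none of 3 Schwann or 5 skeletal muscle markers was called, and the 4 dorsal root ganglion markers were too low to test. The part of these markers' cells in the values of the channel genes was not tested.

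SCI+FIPI was compared with SCI to see which channel genes differed under the inhibitor. In this comparison 19 of the 81 members were higher and 0 were lower, where 2.36% of all genes tested were called higher and 0.695% lower, and 30.2% had groups that did not overlap. The count of 19 depended on single mice: it was 6 without SCI+FIPI 2, 8 without SCI 3 and 29 without SCI 1. The count over all genes tested moved the same way, from 442 called higher to 166, 184 and 781 in these runs. With no limit on the fold, 27 members were higher and 2 lower by edgeR's adjusted p, against 9.63% of all genes in either direction. By edgeR's unadjusted p under 0.05, 44 members were higher and 2 lower, against 2553 and 2156 of the 18699 genes tested. DESeq2 called 22 higher and 0 lower, and limma-voom 19 and 0. Offsets for GC content and length gave 17 members higher, and turned the split over all genes from 442 higher and 130 lower to 349 and 214. The median log2 fold change of the members was 0.38, against -0.00 over all genes. These values share the SCI mice with the comparison of SCI with Sham, so that a low SCI level enters both.

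By class, 12 of 36 voltage-gated genes (median 0.47), 4 of 11 auxiliary genes (0.35), 2 of 13 inward rectifiers (0.25), 1 of 7 calcium-activated genes (0.35) and 0 of 11 two-pore genes (0.21) were called higher. Without SCI+FIPI 2 these counts were 4 voltage-gated, 1 auxiliary, 1 inward rectifier and 0 calcium-activated genes. Without SCI 3 they were 4 voltage-gated, 1 inward rectifier and 0 calcium-activated genes, and the auxiliary genes Kcnab1, Kcnab3 and Kcnip2 kept their calls. Without SCI 1 they were 16 voltage-gated, 5 auxiliary, 4 inward rectifier, 2 calcium-activated and 1 two-pore gene, and 1 of the sodium-activated and Slo3 class. Inward rectifiers also had 1 without SCI 2 or SCI+FIPI 1. Kcnc1 was higher by 0.58 ± 0.10 (SE, adjusted p = 0.0084), Kcnc2 by 0.53 ± 0.10 and Kcnc4 by 0.60 ± 0.12. Each SCI+FIPI mouse lay above each SCI mouse for these Kv3 genes. The calls of Kcnc1 (0.48) and Kcnc2 (0.43) were lost without SCI 3, and that of Kcnc2 also without SCI+FIPI 2 (0.46). The call of Kcnc4 was not followed in the fits without 1 mouse.

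Of the other voltage-gated genes, Kcnb2 was higher by 0.81 ± 0.17 (adjusted p = 0.0102), Kcns3 by 0.64 ± 0.11 (adjusted p = 0.00534) and Kcnh1, an EAG channel gene, by 0.63 ± 0.13 (adjusted p = 0.0103). The call of Kcnh1 was lost without SCI 3 (0.46) or SCI+FIPI 2 (adjusted p = 0.0568). Kcnh8, an ELK channel gene named after its values were seen because its low level kept it out of the naming rule, was higher by 1.26 ± 0.25 (adjusted p = 0.00837). It was at 0.671, 0.662 and 0.844 CPM in SCI and 1.83, 1.99 and 1.43 in SCI+FIPI mice, which did not overlap. The call of Kcnh8 was not followed in the fits without 1 mouse. Kcna2 was higher by 0.55 ± 0.12 (adjusted p = 0.0173), and its call was lost without SCI 3 (0.43) or SCI+FIPI 2 (adjusted p = 0.0812). Kcna1 (0.38 ± 0.17, adjusted p = 0.221) and Kcna6 (0.04 ± 0.07) did not pass.

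Among auxiliary subunits, Kcnab1 (0.73 ± 0.13), Kcnip2 (0.67 ± 0.14), Kcnab3 (0.66 ± 0.13) and Kcnip1 (0.52 ± 0.11) were higher, with adjusted p from 0.0105 to 0.0116. All but Kcnab1 lost the call without SCI+FIPI 2, and Kcnip1 also without SCI 2 (0.45) or SCI 3 (0.46). Kcnab2 differed by 0.43 ± 0.11 and was under the limit. The inward rectifiers called higher were Kcnj3 (0.61 ± 0.09, adjusted p = 0.00217) and Kcnj11 (0.52 ± 0.13, adjusted p = 0.0267). The calcium-activated gene called higher was Kcnn2, which was at 29.4, 25.1 and 30.5 CPM in Sham, 17.5, 16.1 and 12.9 in SCI and 23.1, 25.5 and 21.6 in SCI+FIPI mice (0.59 ± 0.11, adjusted p = 0.00831). The calls of Kcnj11 and Kcnn2 were each lost without SCI 3 (0.39 and 0.48) or without SCI+FIPI 2 (adjusted p = 0.107 and 0.0526), and that of Kcnj11 also without SCI 2 (adjusted p = 0.0869) or SCI+FIPI 1 (0.45).

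The 8 genes that were higher after injury did not pass the call in this comparison. Kcnk6 was lower in every SCI+FIPI mouse than in any SCI mouse, by -0.46 ± 0.09 (SE, adjusted p = 0.00716), and Kcne1l by -0.30 ± 0.06 (adjusted p = 0.0121). Both were under the limit on the fold. Kcnn4 differed by -0.41 ± 0.32 with no overlap of the groups and an adjusted p of 0.488, and Kcnj15 by -0.02 ± 0.40 with overlap.

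In the same comparison 5 of the 10 neuron markers were called higher (median 0.55), with a summed level of 4380 to 5181 CPM in SCI+FIPI mice, and all 10 had groups that did not overlap. The 6 motor neuron markers all had positive differences (0.48), with 0 called and overlapping groups. The microglia and macrophage markers had 0 of 9 called and a median of -0.40, at 3903 to 5146 CPM, and the groups did not overlap for 8 of them. All 6 mural markers had negative differences (-0.31) and 1, Rgs5, was called lower (-0.51), with a summed level of 647 to 804 CPM in SCI and 516 to 598 in SCI+FIPI mice. All 5 endothelial markers also had negative differences (-0.19), with 0 called. None of the astrocyte (0.01), oligodendrocyte (0.08), OPC (-0.18), fibroblast (-0.20), T cell (-0.22), ependymal (-0.01), Schwann (0.37) or skeletal muscle markers (0.16) was called. The part of these cells in the difference of the channel genes was not tested.

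Against Sham, 53 members were lower and 8 higher in SCI+FIPI mice, with 17% and 21.2% of all genes called in these directions, 66.3% with groups that did not overlap, and a median of -0.83 over the members. The medians were -0.92 for voltage-gated, -0.91 for auxiliary, -0.55 for inward rectifier, -0.83 for two-pore and -0.51 for calcium-activated genes. The genes called higher were Kcnn4 (3.43 ± 0.42), Kcnj15 (3.90 ± 0.55), Kcne1l (1.83 ± 0.07), Kcnk6 (1.79 ± 0.10), Kcne4 (1.04 ± 0.29), Kcnk5 (0.95 ± 0.29), Kcnj2 (0.84 ± 0.23) and Kcne3. Kcne3 had 28 counts in the 3 SCI+FIPI mice against 6 in the 3 Sham mice (ratio 4.52, 95% exact interval 1.84 to 13.4, counting error only). It entered the test only through the groups where it was high, so that its call is no support for this count of 8. Kcnj2 lost this call without Sham 1 (0.77) or Sham 3 (0.73), and Kcnk5 without Sham 1 (0.81), Sham 2 (0.92), SCI+FIPI 2 (0.87) or SCI+FIPI 3 (0.83). Kcna2 was at -1.21 ± 0.12 (adjusted p = 4.56e-06). Kcnn2 was at -0.28 ± 0.11 and was not called, with an SCI+FIPI mouse inside the range of the Sham mice.

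The summed FPKM of a class shows how its largest genes weigh. For voltage-gated genes it was 435.6 ± 30.9 in Sham, 152.8 ± 20.02 in SCI and 212.3 ± 11.6 in SCI+FIPI mice (SD, n = 3 each). For inward rectifiers it was 258.0 ± 12.8, 192.6 ± 16.4 and 216.2 ± 4.24. Sham mice lay above SCI mice in each of the 6 classes. The auxiliary class went from 198.8 ± 9.86 in Sham to 135.6 ± 11.3 in SCI mice while its leading gene changed from Kcnab2 (54.0% of the class) to Kcne1l (48.5%). Two-pore genes summed to 73.0 ± 1.91 in Sham and 47.0 ± 2.27 in SCI mice, and calcium-activated genes to 17.0 ± 0.385 and 12.3 ± 0.0544.

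**Figure D5:**
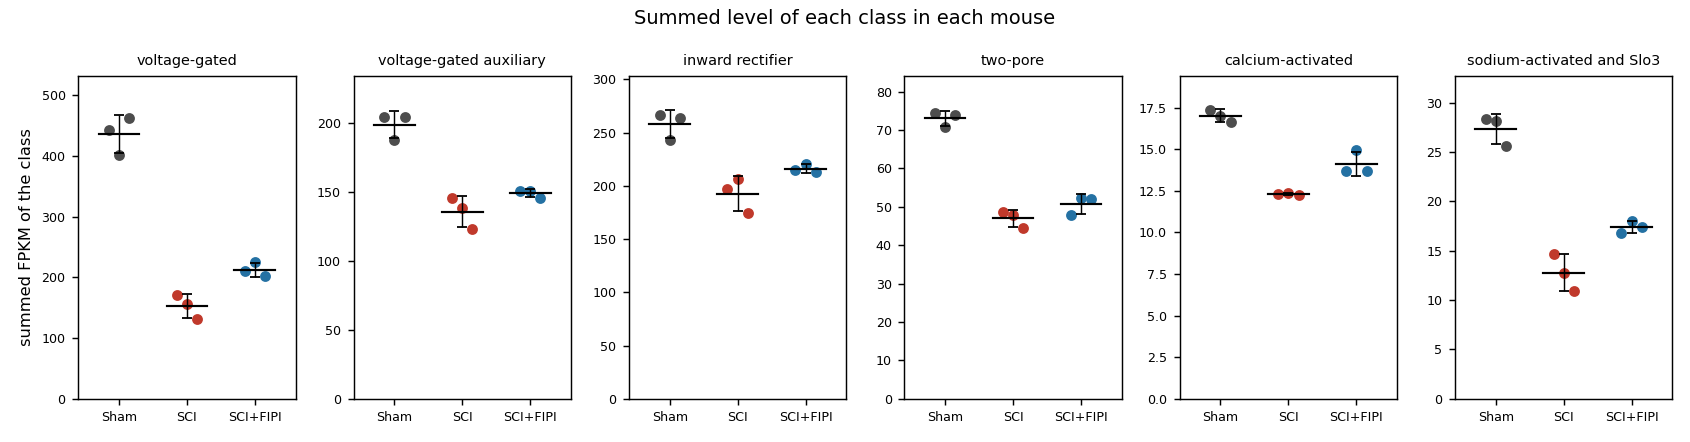
Summed FPKM of the genes of each class (vertical axes, each from 0) in each Sham, SCI and SCI+FIPI mouse. Points are mice, horizontal bars means and whiskers SD of 3 mice. The voltage-gated sum is 401.9 to 462.8 in Sham mice, 131.2 to 170.7 in SCI mice and 202.0 to 224.9 in SCI+FIPI mice.

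Genes whose products bind or place these channels were described with the same fit, and examples were chosen after their values were seen. Of 39 such partners, 29 fell (74.4%) and 3 rose (7.69%) in SCI against Sham, where 22.5% of all genes were called lower and 24.4% higher (median -0.88). In SCI+FIPI against SCI 5 were higher (12.8%) and 0 lower, where 2.36% and 0.695% of all genes were (median 0.27). The count of 5 was 2 without SCI+FIPI 2, 3 without SCI 3, 8 without SCI+FIPI 3 and 9 without SCI 1. Dpp10, a Kv4 partner, was at -2.01 and 0.73 in the 2 comparisons, Cntnap2, which holds Kv1 channels beside the node, at -1.68 and 0.59, and Abcc8, the sulfonylurea receptor that joins Kcnj11, at -1.61 and 0.63. Among those that rose were Dag1 (0.84) and Aqp4 (0.60), parts of the complex that holds water and potassium channels at astrocyte endfeet. Of 23 genes of potassium pumps, cotransporters and their kinases, 9 fell (39.1%) and 5 rose (21.7%) in SCI against Sham (-0.28), the second share near the 24.4% of all genes. In SCI+FIPI against SCI 1 was higher (4.35%, median 0.13), and this count was 0 without SCI 3 or SCI+FIPI 2, 2 without SCI 2, 3 without SCI+FIPI 3 and 5 without SCI 1. The gene called was Slc12a5, the neuronal potassium-chloride cotransporter KCC2, at -1.65 and 0.59. Slc12a7, the cotransporter KCC4, rose by 1.89 after injury.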

How the data were processed

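RNA of the spinal cord was sequenced by the authors after oligo(dT) selection in 9 mice, with 3 per group (Sham, SCI, SCI+FIPI). The authors trimmed the reads and deposited raw read counts per gene, without normalization. The submitters' processing notes name GRCm38 and R 4.2.3. The aligner, counter, annotation and strand setting are not given in the sources used here. Counts totalled 20806000 to 24582377 per mouse, and low counts limit precision. The labels name separate samples, and same-numbered samples of different groups were different animals.

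Symbols, positions and exonic lengths came from GENCODE M21 on GRCm38, which holds 52403 of 52550 identifiers. Genes were kept by filterByExpr (18699), scaled by TMM and fitted in edgeR 4.0.16 (R 4.3.3) by quasi-likelihood with robust estimation and one mean per group. The common dispersion was 0.00866. Calls needed an adjusted p under 0.05 and a log2 fold change of 0.5 or more in size, which are the study's limits. The study's methods name no test. With 3 mice against 3, an exact permutation test gives no p under 0.1. FPKM used total counts and exonic length. DESeq2 1.42.0 and limma-voom (limma 3.58.1) were alternatives. Correlations of deviations from the group means between same-numbered mice were -0.073 to 0.108, so the numbers were not taken to pair mice.

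Genes named were 23 fixed genes, in each class and comparison up to 3 called genes per direction with the largest fold change, provided that groups did not overlap and the mean log2 CPM was 1 or more, and every called gene against the median of its class. Some genes that the rule names are not reported here. Others are named to account for a family or marked as chosen after their values were seen. The members, lists and rules were chosen with earlier results of these data known. Promoter windows came from RefSeq on GRCm38.p6, and CpG counts were added after the motif shares had been seen, first with the highest window of each gene and later over single windows.

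The edgeR step was tested on simulated data for SCI against Sham with 18364 genes. In it, 112 genes were planted at a log2 change of 1 and 88 at 2, in SCI mice only, and all others were left unchanged. The step recovered 76.8% of those at 1 and 94.3% of those at 2, with 4 false calls. In the data 4571 genes were called higher and 4209 lower in this comparison, so that these rates need not hold there. A first criterion of recovery at every fold was not met, and the misses lay at low counts: at a mean count of 100 or more recovery was 96.3% and 100%, at 20 to under 100 it was 38.9% and 90%, and under 20 it was 0% and 50%. The criterion was then set on genes with 100 counts or more. Of the 81 members tested, 60 had a mean count of at least 100, 16 had 20 to under 100 and 5 had fewer.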

Additional observations from a re-analysis of the deposited data

How the results depend on the processing

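The alternative runs followed single genes only where the naming rule gave them, and the medians of all classes but the sodium-activated and Slo3 class. Among these, no called difference and no class median reversed its direction under any alternative run, while 17 values of genes called neither way did. Other called members were not followed. Kcnj15 in SCI+FIPI against SCI was at 0.0019 with upper-quartile scaling and 0.0097 with limma-voom (-0.02 as reported), and Kcnj8 in SCI+FIPI against Sham at -0.086 with offsets for GC content and length. The others lay among the fits without 1 mouse, where SCI+FIPI against SCI ranged from -0.27 to 0.12 for Kcne3, -0.37 to 0.24 for Kcne4, -0.19 to 0.38 for Kcnj15, -0.23 to 0.22 for Kcnj2 and -0.16 to 0.38 for Kcnk5, SCI against Sham from -0.16 to 0.041 for Kcnj8, and SCI+FIPI against Sham from -0.039 to 0.14 for Kcnj8 and -0.014 to 0.20 for Kcnk2. Of the counts of members called and the class medians recomputed under the alternatives, 343 stayed close to the main value (within 1.5 times for a count, within the spread between mice for a median) and 41 moved. In SCI+FIPI against SCI, 2 members were lower with no limit on the fold change, against 0 with it. The other values that moved with all mice kept were class medians of log2 fold changes. With upper-quartile scaling the calcium-activated median of SCI against Sham was -0.93. With no filter on low counts, SCI against Sham gave -0.55 for inward rectifiers and -0.76 for calcium-activated genes, SCI+FIPI against SCI gave 0.45 for calcium-activated genes, and SCI+FIPI against Sham gave -0.47 for auxiliary, -0.39 for inward rectifier, -0.68 for two-pore and -0.31 for calcium-activated genes. With at least 10 counts in every mouse, inward rectifiers in SCI against Sham were at -1.08, further from 0 than calcium-activated genes (-0.87), and Kcnj15 was not tested. With offsets for GC content and length, SCI against Sham gave -1.32 for auxiliary and -0.60 for inward rectifier genes, and SCI+FIPI against Sham gave -0.82, -0.45 and -0.34 for auxiliary, inward rectifier and calcium-activated genes. The filters change which genes are tested; for the scaling and the offsets the cause was not tested.

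Leaving out each mouse in turn, the count of members higher in SCI+FIPI against SCI ranged from 6 to 29. The count over all genes tested ranged from 166 to 781 in the same fits. Class medians of SCI against Sham ranged from -1.49 to -1.33 for voltage-gated, -0.83 to -0.64 for inward rectifier, -1.11 to -0.92 for two-pore and -0.97 to -0.75 for calcium-activated genes. Those of SCI+FIPI against SCI ranged from 0.39 to 0.58 for voltage-gated, 0.16 to 0.33 for two-pore and 0.26 to 0.39 for calcium-activated genes. Those of SCI+FIPI against Sham ranged from -0.92 to -0.59 for auxiliary, -0.60 to -0.44 for inward rectifier and -0.87 to -0.69 for two-pore genes.

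With the replicate number as a block, 20 members were higher in SCI+FIPI against SCI (19 without it) and 51 lower in SCI+FIPI against Sham (53 without it), and the 144 values of named genes stayed on their side of the limits.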

Other observations

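Antisense RNAs that carry a channel gene's symbol were left out of the members. Kcnq1ot1, the imprinted antisense RNA of the Kcnq1 locus, was at 15.5, 17.7 and 17.0 CPM in Sham and 10.9, 12.4 and 12.2 in SCI mice, which did not overlap, and its log2 fold change of -0.50 (edgeR, adjusted p = 0.000363) was just under the limit in size. Kcnd3os had 12, 13 and 22 counts in Sham and 10, 8 and 3 in SCI mice, with a log2 fold change of -1.22 (edgeR, adjusted p = 0.0314). Kcnmb4os2 was not called, and Kcnab3os and Kcnmb4os1 had too few counts to test.

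Of the members called lower after injury, Kcnj14 shares 31.2% and Kcnk4 21.7% of the 50-base stretches of its longest transcript with another gene, so that their counts are uncertain. No other member shares more than 2.81%.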
